A study of Mus musculus with 12 samples.

Results

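The interferon-inducible GTPases of mouse tumors were followed across every treatment group, as 5 guanylate-binding proteins (Gbp2, Gbp3, Gbp4, Gbp5 and Gbp7) and 5 immunity-related GTPases (Irgm1, Irgm2, Igtp, Iigp1 and Ifi47). These 10 genes were chosen by name from the 55450 gene identifiers of the count table, and all 10 had enough reads to be tested. The tumors were TC2R, a single mouse prostate adenocarcinoma line (TRAMP-C2 with an activated H-ras brought in by lentivirus), grown under the skin of C57BL6 males aged 8 to 10 weeks. On day 4 each mouse received 1 plasmid by sonoporation into muscle: the empty vector (pMCS and IL-18 groups), IL-27 with a non-specific peptide at its C-terminus (IL-27 and 27→18 groups), or 27pepL, which is IL-27 with a C-terminal peptide that binds the IL-6 receptor α chain (27pepL and 27pepL→18 groups). The IL-18, 27→18 and 27pepL→18 groups also had recombinant IL-18 injected into the tumor on day 10. All tumors were taken on day 26, and each of the 12 libraries, 2 per group, pooled RNA from 4 to 6 tumors. Whether the pools behind the 2 libraries of a group held different animals is not stated, so every p-value rests on library-to-library spread that could be technical.

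Both families are classical products of interferon-γ signaling, in which the induced factor IRF1 acts on their promoters. Guanylate-binding proteins are large GTPases that assemble on vacuoles and on bacterial surfaces and help to open them to inflammasome sensing. The immunity-related GTPases fall into regulators that sit on the cell's own membranes (Irgm1, Irgm2 and Igtp, also called Irgm3) and effectors that coat and disrupt pathogen vacuoles (Iigp1 and Ifi47). In tumors both tumor cells and leukocytes can make them in response to interferon, so they are read as a record of interferon exposure. IL-18 induces interferon-γ in natural killer and T cells.

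The control regions are shown because the members moved together across the libraries. In the RefSeq promoter table (GRCm38.p6, 250 bases before to 50 after each start) 8 of the 10 symbols were matched, with 9 windows. Gbp4 and Iigp1 are named only. Both strands were searched for the interferon-stimulated response element (ISRE: GAAA, any 2 bases, GAAA) and the interferon-γ activated site (GAS, TTCNNNGAA). An ISRE match was present for 7 symbols and a GAS match for 4 (Gbp5, Gbp7, Irgm2 and Igtp), which also held an ISRE. Over all 32851 windows of 300 bases in the table, 3.44% held an ISRE match, 8.3% a GAS match and 0.454% both. Capitals mark the matches, and each stretch runs 5′ to 3′ on the strand of its gene:
Gbp5, plus strand, chr3:142496757-142496790: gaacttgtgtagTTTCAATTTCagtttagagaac
Gbp7, plus strand, chr3:142530218-142530304: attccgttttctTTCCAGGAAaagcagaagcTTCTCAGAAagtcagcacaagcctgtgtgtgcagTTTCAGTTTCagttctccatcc
Gbp3, plus strand, chr3:142559987-142560026: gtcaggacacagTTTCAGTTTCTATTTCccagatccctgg
Gbp2, plus strand, chr3:142620592-142620625: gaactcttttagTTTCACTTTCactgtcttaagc
Irgm1, minus strand, chr11:48871423-48871462: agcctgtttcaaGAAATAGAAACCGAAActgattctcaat
Igtp, plus strand, chr11:58199499-58199543: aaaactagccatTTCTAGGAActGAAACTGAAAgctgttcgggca
Irgm2, plus strand, chr11:58214890-58214934: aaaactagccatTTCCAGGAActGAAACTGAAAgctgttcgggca

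Each stretch begins 42 to 177 bases before the RefSeq start. In Gbp3 and Irgm1 a pair of ISRE matches overlapped each other, while no GAS match overlapped an ISRE match in any member. The Igtp and Irgm2 stretches were identical at 44 of 45 bases (97.8%), with a GAS followed by an ISRE in both. Gbp5 held 2 further GAS matches outside the stretch shown, and Ifi47 had no match to either pattern in its window. A match describes letters and is not evidence that a factor binds there.

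**Figure D1:**
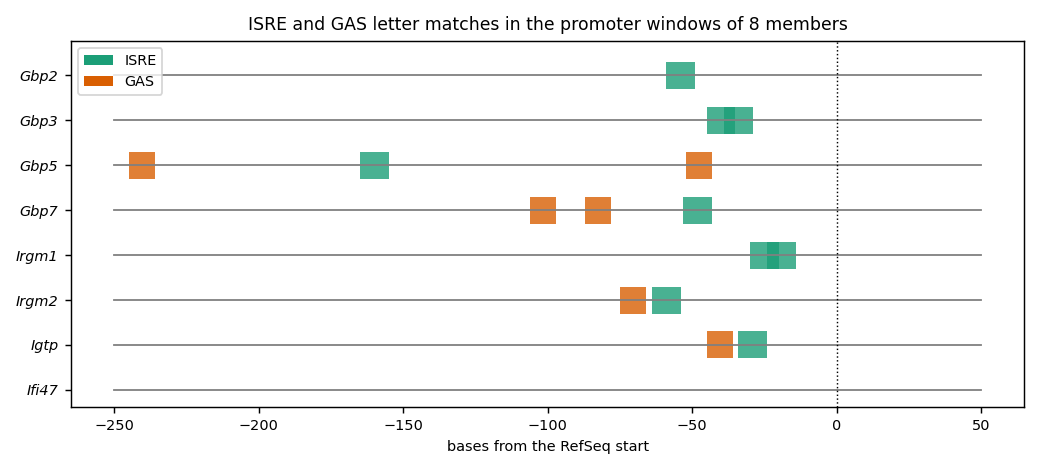
Positions of ISRE (green) and GAS (orange) letter matches in the promoter windows of 8 members, in bases from the RefSeq start (dotted line at 0). Gbp3, Irgm1, Irgm2, Igtp, Gbp2 and Gbp7 have an ISRE beginning 64 bases or fewer before the start, Gbp5 has one at 165, and Ifi47 has none.

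Library totals ran from 49844915 to 76620862 gene counts, at which 3 counts equal 0.0392 to 0.0602 raw CPM. IL-27 replicate 1 stood apart from the other 11 libraries: its summed level of 8 leukocyte genes was 1548 CPM against 199 to 541 elsewhere, and that of 6 adipocyte genes 9996 CPM against 44.3 to 1032. Muscle genes were highest in 27→18, at 152 and 49.4 CPM against 1.71 to 7.35 elsewhere. The 8 liver genes divided the groups: the 6 libraries from pMCS, IL-18 or IL-27 tumors held 204 to 326 CPM, and the 6 from 27→18, 27pepL or 27pepL→18 tumors held 1.43 to 5.57. In a comparison across this division, treatment and the source of the liver signal cannot be told apart. Of the prostate epithelial genes, Krt5, a defining gene of basal prostate, had 0 counts in all 12 libraries, and the luminal keratin gene Krt18 read 0.498 to 3.10 CPM. The main member counts, and the medians that rest on IL-27 replicate 1, are given with and without it. Fits with a covariate or with no filter on low counts include it throughout.

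Levels are given as CPM (counts scaled to library size, with TMM factors), replicate 1 before replicate 2, and gene positions are those of GENCODE M21 on GRCm38. Gbp2 (chr3:142620602-142638008), which attacks bacterial envelopes and vacuoles, read 17.8 and 19.98 CPM in pMCS, 26.1 and 12.2 in IL-18, 346 and 8.71 in IL-27, 56.2 and 32.5 in 27→18, 26.6 and 26.6 in 27pepL, and 43.5 and 31.2 in 27pepL→18. IL-27 replicate 1 was thus 6.16-fold above the next library, 27→18 replicate 1, while IL-27 replicate 2 was the lowest of all 12. Gbp3 (chr3:142560026-142573209), a member of the same chromosome 3 cluster, read 14.4 and 19.2 CPM in pMCS, 16.1 and 10.1 in IL-18, 151 and 7.18 in IL-27, 28.0 and 17.0 in 27→18, 22.3 and 23.5 in 27pepL, and 21.4 and 21.1 in 27pepL→18. For Gbp3, 27pepL and 27pepL→18 lay wholly above both pMCS libraries, and the other groups overlapped pMCS.

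Gbp4 (chr5:105115767-105139586), from the second mouse cluster, read 2.96 and 2.14 CPM in pMCS, 2.07 and 1.46 in IL-18, 99.2 and 1.15 in IL-27, 8.69 and 7.79 in 27→18, 3.80 and 2.27 in 27pepL, and 5.29 and 4.27 in 27pepL→18. Both 27→18 libraries and both 27pepL→18 libraries lay above both pMCS libraries, and the ratio between the IL-27 libraries was 86.2, the widest of the 10 members. Gbp5 (chr3:142493978-142522344), which promotes inflammasome assembly, read 1.87 and 2.97 CPM in pMCS, 3.16 and 2.08 in IL-18, 63.0 and 0.742 in IL-27, 5.65 and 2.08 in 27→18, 2.37 and 3.64 in 27pepL, and 4.35 and 5.15 in 27pepL→18. Of the Gbp5 groups, 27pepL→18 alone had both libraries above both of pMCS. Gbp7 (chr3:142530342-142550149), linked to oxidative and autophagic defence, read 10.2 and 5.81 CPM in pMCS, 5.48 and 5.31 in IL-18, 78.1 and 3.82 in IL-27, 15.0 and 7.50 in 27→18, 6.31 and 11.2 in 27pepL, and 8.49 and 9.65 in 27pepL→18. Apart from IL-18, which lay below pMCS, every Gbp7 group overlapped pMCS.

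Among the regulatory immunity-related GTPases, Irgm1 (chr11:48861968-48871683), which controls autophagy and membrane targeting of the effectors, read 9.96 and 20.5 CPM in pMCS, 23.9 and 12.9 in IL-18, 148 and 11.8 in IL-27, 30.7 and 18.9 in 27→18, 23.1 and 26.5 in 27pepL, and 21.5 and 29.3 in 27pepL→18. Irgm1 was the 1 member whose lowest library was pMCS replicate 1 and not IL-27 replicate 2. Irgm2 (chr11:58199618-58222782), a Golgi regulator, read 4.99 and 7.02 CPM in pMCS, 6.99 and 3.79 in IL-18, 114 and 1.74 in IL-27, 13.1 and 8.64 in 27→18, 7.07 and 10.6 in 27pepL, and 10.9 and 13.8 in 27pepL→18. All 6 libraries of the last 3 groups lay above both pMCS libraries for Irgm2. Igtp (chr11:58199556-58207591), the regulator of the endoplasmic reticulum, read 12.4 and 10.4 CPM in pMCS, 13.5 and 7.91 in IL-18, 162 and 6.27 in IL-27, 36.6 and 21.3 in 27→18, 19.4 and 16.1 in 27pepL, and 26.0 and 17.4 in 27pepL→18. The same 6 libraries exceeded pMCS for Igtp, most of all 27→18.

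The effector Iigp1 (chromosome 18), which loads onto parasite vacuoles, read 7.26 and 4.99 CPM in pMCS, 6.81 and 3.36 in IL-18, 205 and 2.47 in IL-27, 25.2 and 16.8 in 27→18, 9.26 and 8.95 in 27pepL, and 18.6 and 15.5 in 27pepL→18. Iigp1, like Gbp2, had both sequential groups above 27pepL, and 27pepL above pMCS, without overlap. Taken singly, 27pepL lay wholly above pMCS for 13.5% of tested genes, and 27pepL→18 above 27pepL for 10.5%. The shares for 27→18 above 27pepL and for the whole order were not computed. Ifi47 (chr11:49076587-49096974), the other effector, read 6.10 and 6.53 CPM in pMCS, 8.78 and 4.17 in IL-18, 100.3 and 2.97 in IL-27, 14.8 and 12.1 in 27→18, 12.4 and 8.20 in 27pepL, and 16.9 and 14.1 in 27pepL→18. For Ifi47 the same 3 groups lay wholly above pMCS and overlapped in part with each other.

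**Figure D2:**
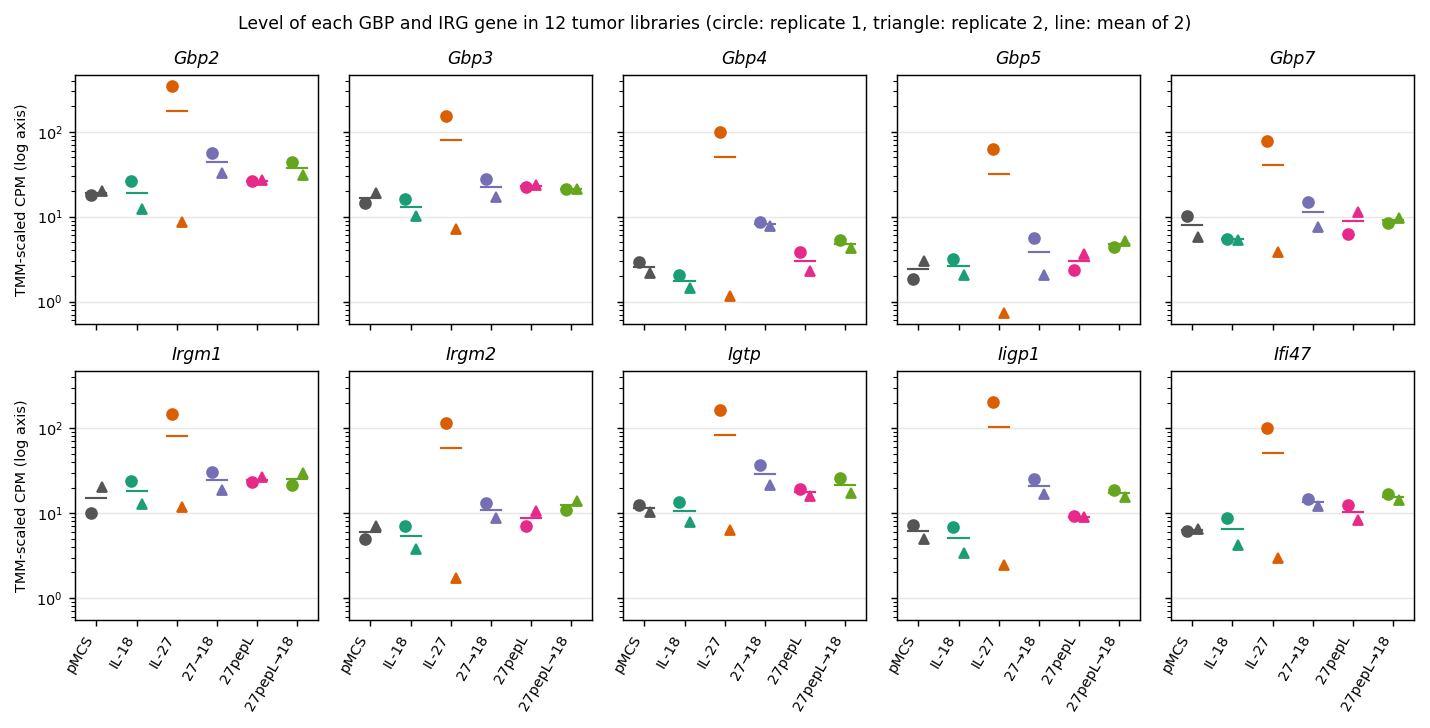
TMM-scaled CPM of each member on a log axis in the 12 libraries, by group (circle for replicate 1, triangle for replicate 2, line for their mean). In every panel IL-27 replicate 1 is the highest library, from 63.0 CPM for Gbp5 to 346 for Gbp2, and in 9 of 10 panels IL-27 replicate 2 is the lowest.

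Across the 10 members, IL-27 replicate 1 exceeded the next highest library 4.42-fold (Igtp) to 11.4-fold (Gbp4), and exceeded its own partner 12.6-fold (Irgm1) to 86.2-fold (Gbp4). In the other 5 groups the higher library of a pair was at most 2.72-fold above the lower one, for Gbp5. By group mean the IL-27 group came first for every member, but it overlapped the group ranked next in each of the 10. In order of median rank, 27→18 replicate 1 followed IL-27 replicate 1, and both 27pepL→18 libraries came next. Per kilobase of merged exon, the median library held most Gbp2 (10.6 CPM per kb) and Igtp (8.27) and least Gbp4 (0.451) and Gbp5 (0.462). Gbp2 made up 18.6 to 24.6% of the summed CPM of the 10 members in each library, whereas the share of Gbp4 ranged from 1.65 to 6.76%.

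The comparison of IL-27 with pMCS asked what the untargeted cytokine did alone. All 10 members were higher in IL-27 at the thresholds of the study, an unadjusted p under 0.05 with more than a 2-fold change, which 3.44% of the 20417 tested genes met in that direction and 0.784% in the other. The log2 fold change was 4.30 (SE 1.40) for Gbp4, 4.08 (SE 1.38) for Iigp1 and 3.72 (SE 1.41) for Gbp5. Gbp3 had the lowest value, 2.24 (SE 0.99), and the median of the members was 3.13 against 0.00 over all tested genes. None passed after adjustment over all genes (edgeR quasi-likelihood test with Benjamini-Hochberg adjustment, adjusted p = 1 for each), and DESeq2 and edgeR's exact test also gave 0. With no filter on low counts, all 10 passed an adjusted p of 0.05, as 2.63% of 31054 genes did. The estimates hardly moved in that fit and the SE shrank, for Iigp1 from 1.38 to 0.52 and for Gbp3 from 0.99 to 0.48. With the compared groups alone, 0 members were called at either threshold by edgeR (0.659% of 18508 genes were called higher). The IL-27 libraries overlapped pMCS for every member, whereas 10.7% of tested genes lay wholly above pMCS and 11.6% wholly below. In these bulk samples, a change in the number of cells of a type and a change in RNA per cell cannot be told apart.

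This result rests on 1 library. Without IL-27 replicate 1, 0 members were higher and 4 were lower than pMCS (1.58% of 22152 genes were called lower), namely Irgm2 with a log2 fold change of -1.77 (SE 0.59), Gbp5 with -1.69, Iigp1 with -1.29 and Gbp3 with -1.21, and the median of all 10 was -1.11. With IL-27 replicate 2 left out instead, the median was 4.09, and 10 of 10 members passed an adjusted p of 0.05, as 1.91% of 22654 genes did (8.63% were called higher at the study's thresholds). In both fits the lone IL-27 library is assumed to vary like the other groups. The medians were 3.02 without pMCS replicate 1 and 3.27 without pMCS replicate 2. Fewer members passed the study's thresholds in those fits, and the share of all genes that passed there is not given.

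**Figure D3:**
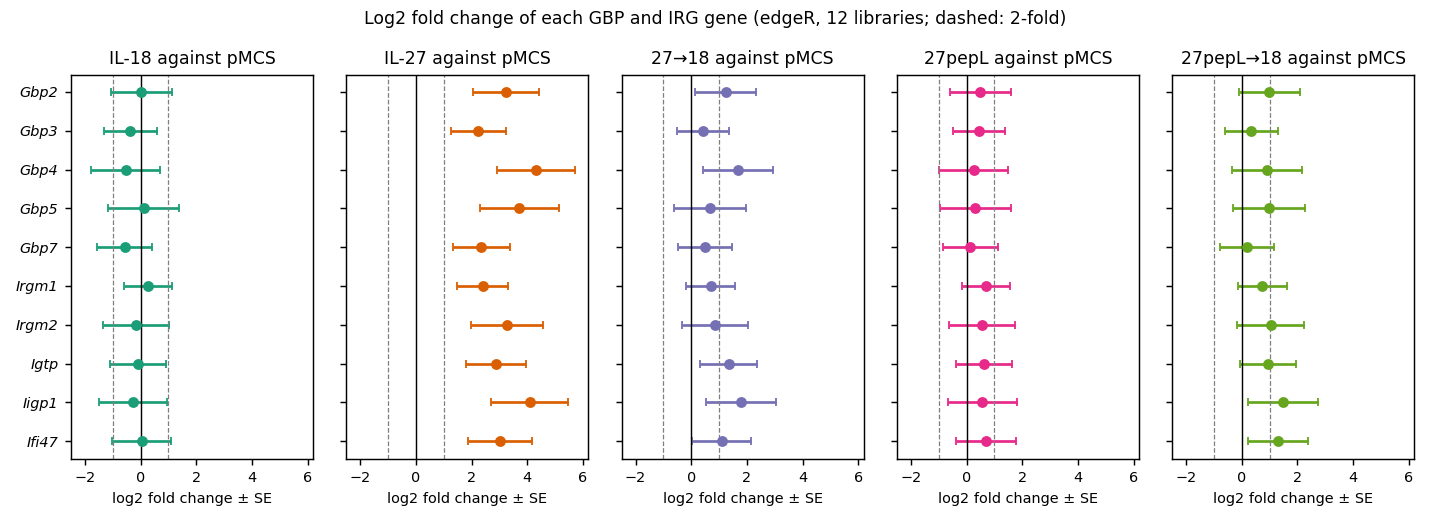
Log2 fold change (point) with its SE (bar) of each member in each treatment against pMCS from the edgeR fit to 12 libraries, with no change (solid line) and 2-fold (dashed lines). IL-27 values lie between 2.24 and 4.30, the 27→18, 27pepL and 27pepL→18 values all lie above 0, and the IL-18 values lie on both sides of 0.

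The sequence 27→18 gave estimates above 0 for all 10 members, with a median log2 fold change of 0.97 against 0.00 over all genes, but 0 members passed either threshold and 0 had an unadjusted p under 0.05 by edgeR. Over all genes, 0.7% were called higher, 1.61% lower and 0.235% at an adjusted p under 0.05. The estimates ran from 0.42 (SE 0.94) for Gbp3 to 1.78 (SE 1.26) for Iigp1, with Gbp4 at 1.69 and Igtp at 1.35. For 6 members (Gbp2, Gbp4, Irgm2, Igtp, Iigp1 and Ifi47) both libraries lay above both of pMCS, as was so for 12.3% of the tested genes, and 0 lay below (11.5%). Leaving out IL-27 replicate 1, whose spread enters the shared error, 5 members passed the study's thresholds (1.16% of 22152 genes were called higher), as did the same 5 without IL-27 replicate 2. These were Iigp1 (log2 fold change 1.79, SE 0.43, edgeR adjusted p = 0.439 without replicate 1), Gbp4, Igtp, Gbp2 and Ifi47. Also 5 passed with the compared groups alone (1.33% of 18409 genes) and with no filter on low counts (1.59% of 31054 genes), where Iigp1 alone passed an adjusted p of 0.05.

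The 27pepL plasmid alone gave a median log2 fold change of 0.53 against -0.03 over all genes, with estimates from 0.13 for Gbp7 to 0.71 for Ifi47. By edgeR 0 members passed either threshold and 0 had an unadjusted p under 0.05, while 0.735% of genes were called higher, 2.54% lower and 0.255% at an adjusted p under 0.05. The libraries of 27pepL lay wholly above pMCS for 7 members (13.5% of genes) and below for 0 (14.6%). For Gbp4, Gbp5 and Gbp7 the groups overlapped.

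With IL-18 added, 27pepL→18 had a median of 0.95 against -0.03 over all genes, and again by edgeR 0 members passed either threshold and 0 had an unadjusted p under 0.05. Of all genes 0.813% were called higher, 2.16% lower and 0.23% at an adjusted p under 0.05. The leading estimates were 1.48 (SE 1.25) for Iigp1, 1.29 (SE 1.08) for Ifi47 and 1.04 for Irgm2. Both libraries lay above both of pMCS for 9 members, all except Gbp7 (14.1% of genes), and below for 0 (15%). Without IL-27 replicate 1 the estimates were 1.49 (SE 0.43) for Iigp1, 1.30 for Ifi47 and 1.05 for Irgm2. These 3 passed the study's thresholds with the compared groups alone (1.08% of 18190 genes), and 4 members did with no filter on low counts (1.63% of 31054 genes).

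IL-18 with the empty vector gave a median log2 fold change of -0.12 against -0.02 over all genes, with 4 estimates above 0 and 6 below. By edgeR 0 members passed either threshold and 0 had an unadjusted p under 0.05, while 0.828% of genes were called higher and 1.65% lower. The estimates ran from -0.57 (SE 0.98) for Gbp7 to 0.27 (SE 0.87) for Irgm1. Gbp4 and Gbp7 lay wholly below pMCS, as 19.4% of genes did, and 0 members lay wholly above (19.3%). In IL-18, 27→18, 27pepL and 27pepL→18 against pMCS, DESeq2 and the exact test also called 0 members at either threshold. The SE in these comparisons, 0.87 to 1.29, came from the fit over all 6 groups. The pooled SD of the members' median log2 CPM was 1.55 over those 6 groups and 0.303 over the 5 without IL-27.

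Plasmid forms and the addition of IL-18 were compared directly. In 27pepL against IL-27, all 10 estimates were below 0, with a median of -2.52 against -0.09 over all genes. At the study's thresholds 4 members were lower: Gbp4 (-4.05, SE 1.38, edgeR adjusted p = 0.761), Iigp1 (-3.51), Gbp5 (-3.41) and Gbp2 (-2.74). Of all genes 4.45% were called lower, 0.744% higher and 0.245% at an adjusted p under 0.05. The exact test called 8 members lower (5.54% of genes) and DESeq2 10 (6.98% of genes), 1 of them at an adjusted p under 0.05 (1.67%). With no filter on low counts, all 10 were lower at an adjusted p under 0.05 (3.15% of 31054 genes), with the SE of Gbp4 at 0.61 in place of 1.38, and with the compared groups alone 0 were called at either threshold by edgeR (2.46% of 18569 genes were called lower). The groups overlapped for every member (10.9% of genes lay wholly above IL-27 and 13.6% below). With either 27pepL library left out, fewer members passed the study's thresholds, and the share of all genes that passed there is not given. Removing IL-27 replicate 1 turned the comparison over, with 8 members higher in 27pepL (1.95% of 22152 genes, median 1.64), while removing IL-27 replicate 2 gave 10 lower (9.72% of 22654 genes).

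In 27→18 against IL-27 the median was -1.97 against -0.02 over all genes, and by edgeR 0 members passed either threshold and 0 had an unadjusted p under 0.05. Of all genes 2.95% were called lower, 0.656% higher and 0.245% at an adjusted p under 0.05. The estimates ran from -3.04 (SE 1.37) for Gbp5 to -1.54 (SE 1.02) for Igtp. At the study's thresholds DESeq2 called 8 members lower (4.97% of genes) and the exact test 3 (3.78%). With no filter on low counts all 10 were lower at an adjusted p under 0.05 (2.38% of 31054 genes), with the SE of Gbp5 at 0.63 in place of 1.37. Here too the groups overlapped for every member (9.48% of genes lay wholly above and 9.81% below). The direction again turned over with IL-27 replicate 1 removed, to 9 members higher in 27→18 (1.98% of 22152 genes, median 2.27), and with IL-27 replicate 2 removed 10 were lower (8.75% of 22654 genes).

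**Figure D4:**
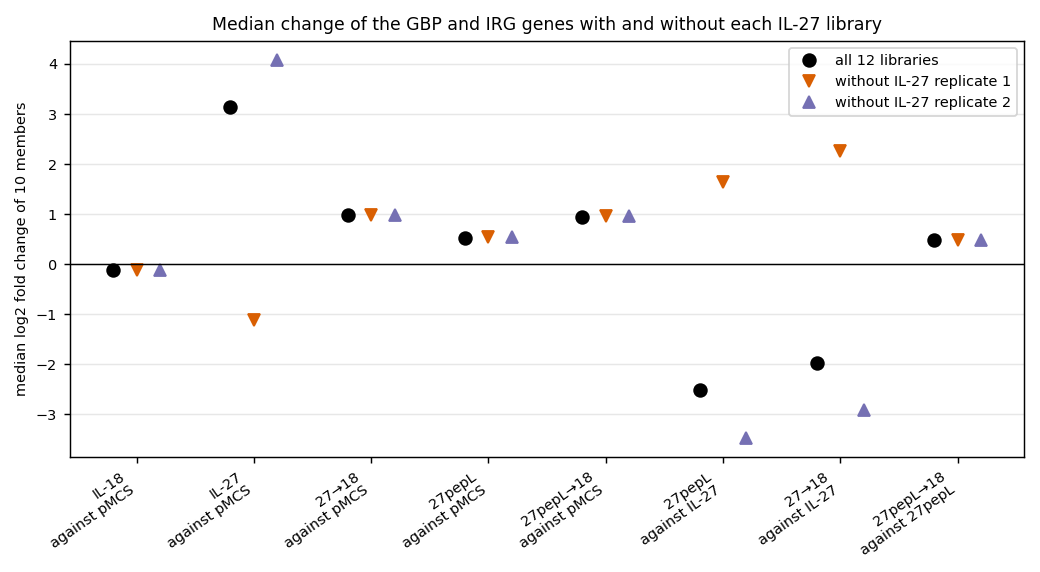
Median log2 fold change over the 10 members in 8 comparisons, from all 12 libraries (circle) and with either IL-27 library left out (triangles). The comparisons with IL-27 on either side change sign without IL-27 replicate 1, for instance from 3.13 to -1.11 against pMCS, and the others keep their sign, for instance 0.97 and 0.98 for 27→18 against pMCS.

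In 27pepL→18 against 27pepL, 9 estimates were above 0 and Gbp3 was below it, with a median of 0.49 against 0.00 over all genes. By edgeR 0 members passed either threshold and 0 had an unadjusted p under 0.05, while 0.588% of genes were called higher and 0.456% lower. Both libraries were higher for 6 members (Gbp2, Gbp4, Gbp5, Irgm2, Iigp1 and Ifi47, against 10.5% of genes) and lower for Gbp3 (9.77%), and the highest estimate was 0.91 (SE 1.23) for Iigp1.

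The effect of IL-18 after each plasmid was tested against its effect after pMCS. After IL-27 the difference had a median of -2.00 against -0.07 over all genes, and after 27pepL a median of 0.55 against 0.02. By edgeR 0 members passed either threshold in either test (adjusted p = 0.948 and 0.9999) and 0 had an unadjusted p under 0.05. The count by DESeq2 was 0 as well. For the difference after IL-27, 2.21% of genes were called lower, 1.48% higher and 0.147% at an adjusted p under 0.05, and for that after 27pepL 0.764% lower and 1.6% higher. The former turned over once IL-27 replicate 1 was left out, to a median of 2.26 with 9 members higher (2.2% of 22152 genes), and without IL-27 replicate 2 gave 10 lower (6.8% of 22654 genes).

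Leukocyte genes moved with the members. The summed level of the 8 leukocyte genes was 199 and 250 CPM in pMCS, 359 and 306 in IL-18, 1548 and 259 in IL-27, 452 and 416 in 27→18, 382 and 332 in 27pepL, and 368 and 541 in 27pepL→18. The summed level of the 10 members was 87.8 and 99.5 CPM in pMCS, 113 and 63.2 in IL-18, 1468 and 46.9 in IL-27, 234 and 145 in 27→18, 133 and 138 in 27pepL, and 177 and 162 in 27pepL→18. Over the 12 libraries the correlation of the mean log2 levels was r = 0.921, and r = 0.683 over the 11 without IL-27 replicate 1, as a description of libraries that share depth and scaling. Per 100 CPM of leukocyte genes the members reached 94.8 CPM in IL-27 replicate 1 but 18.1 in IL-27 replicate 2, with pMCS at 44.1 and 39.7, IL-18 at 31.5 and 20.7, 27→18 at 51.7 and 34.7, 27pepL at 34.7 and 41.5, and 27pepL→18 at 48.1 and 29.9. Measured this way, IL-27 replicate 1 was still the highest library, and 27→18, 27pepL and 27pepL→18 overlapped pMCS.

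**Figure D5:**
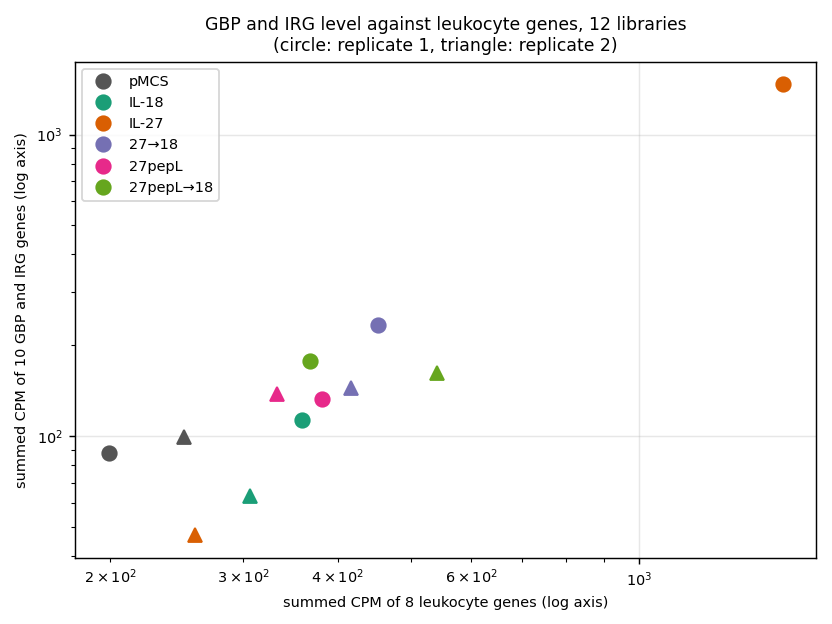
Summed CPM of the 10 members against summed CPM of 8 leukocyte genes in each library, both on log axes (circle for replicate 1, triangle for replicate 2). IL-27 replicate 1 lies alone at 1548 leukocyte and 1468 member CPM, and IL-27 replicate 2 has the lowest member level, 46.9, at a leukocyte level of 259.

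Macrophage genes summed to 2657 CPM in IL-27 replicate 1 against 305 to 1101 elsewhere, natural killer cell genes to 196 against 11.5 to 47.4, and T cell genes to 111 against 5.98 to 20.1. The natural killer cell sum was 12.9 and 17.0 CPM in pMCS, 22.6 and 23.8 in IL-18, 196 and 11.5 in IL-27, 26.9 and 47.4 in 27→18, 45.6 and 28.9 in 27pepL, and 31.8 and 47.3 in 27pepL→18. All 8 treated libraries outside the IL-27 group lay above pMCS, but IL-27 replicate 2 lay below both pMCS libraries. How often other gene sums do so was not computed. The macrophage sum was 305 and 591 CPM in pMCS, 711 and 523 in IL-18, 2657 and 428 in IL-27, 1055 and 828 in 27→18, 973 and 729 in 27pepL, and 786 and 1101 in 27pepL→18. The part of these cells, and of the adipocyte genes of IL-27 replicate 1 and pMCS replicate 2 (9996 and 1032 CPM), in the member levels was not tested. With the mean leukocyte level as a term in the fit, all 5 medians lay below 0. They were -1.25 in IL-27, -0.98 in IL-18, -0.25 in 27→18, -0.38 in 27pepL and -0.63 in 27pepL→18. With 1 term per group, the slope on that level rests on differences within pairs of libraries. The IL-27 pair differed most, with mean leukocyte log2 CPM of 7.52 and 4.78. This fit was not repeated without IL-27 replicate 1, so its medians do not show what leukocytes contribute.

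The members resembled each other closely. The correlation of log2 CPM between pairs of members ran from 0.866 to 0.991 over 12 libraries (median 0.950 over 45 pairs) and from 0.482 to 0.974 over the 11 without IL-27 replicate 1 (median 0.827). Of the tested genes outside the set, those whose profile was most like the mean standardised member profile were Tmem229b (r = 0.986), the class I heavy chain H2-D1 (0.981), the phagocyte oxidase subunit Cybb (0.979), the class I light chain B2m (0.979), H2-Q4 (0.977), Themis2, the nucleic acid sensor Zbp1, the endothelial and blood cell factor Fli1, Zfp810 and H2-Q6. Over 11 libraries their r was 0.890 to 0.957. B2m read 689 and 737 CPM in pMCS, 2927 and 585 in IL-27, 1091 and 942 in 27→18, and 1011 and 967 in 27pepL→18, with its highest library in IL-27 replicate 1 and its lowest, at 519 CPM, in IL-18 replicate 2. All points share depth and scaling, and no test is attached to these values.

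Some members share sequence with neighbours, which the counting could split. In GENCODE M21 (GRCm38), Igtp and Irgm2 share 162 exon bases on the same strand, 8.01% of Igtp and 4.39% of Irgm2. Gbp7 shares 637 exon bases (11.3%) with the processed pseudogene Gm43802, Ifi47 shares 111 (4.49%) with Olfr56, and Gbp4 shares 61 and 60 with Gbp8 and Gbp9. Levels of these members are uncertain for that reason. The percentages are overlaps of annotated positions, and the size of any counting error was not measured.

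Of 18 other GBP and IRG genes 17 were tested. At the study's thresholds 9 were higher in IL-27 (3.44% of all tested genes), with a median log2 fold change of 3.57 over the 17. In the other treatments 0 were higher (0.7 to 0.828% of all tested genes), and 1, F830016B08Rik, was lower in IL-18 (1.65%). That gene was barely detected, at 0.166 and 0.138 CPM in pMCS and 0 counts in both IL-18 libraries. Tgtp1, an effector of the same class as Iigp1 that has a near-identical neighbour in Tgtp2, read 2.93 and 3.09 CPM in pMCS, 70.3 and 0.910 in IL-27, 11.8 and 9.62 in 27→18, and 9.19 and 6.99 in 27pepL→18. The very large interferon-inducible GTPase gene Gvin1 read 5.35 and 6.48 CPM in pMCS and 109 and 2.30 in IL-27. Gbp2b read 0.189 and 0 CPM in pMCS and 23.2 and 0 in IL-27, and Gm4951 read 0.804 and 0.691 in pMCS and 24.0 and 0.204 in IL-27. With IL-27 replicate 1 left out, the median log2 fold change of these 17 genes in IL-27 against pMCS was -2.18.

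Upstream of the members, 0 of 14 interferon-γ signal genes passed the study's thresholds in the treatments other than IL-27. In IL-27, 4 of the 14 were higher at those thresholds, as were 3.44% of all tested genes. Among them were the phosphatase gene Ptpn6 (15.6 and 22.9 CPM in pMCS against 125 and 20.3 in IL-27), Irf9 (13.6 and 17.7 against 63.1 and 15.2) and Stat2 (17.6 and 4.58 against 84.2 and 9.93), of which the latter encode partners in interferon-driven transcription. In each of the 3 genes IL-27 replicate 1 was the highest of the 12 libraries. The transcript of interferon-γ itself, Ifng, was named after its values were seen: it read 2.27 CPM in IL-27 replicate 1 and 0 to 0.229 in the other 11 libraries. Once IL-27 replicate 1 was left out, the median log2 fold change of the 14 in IL-27 against pMCS was -0.06, beside 0.59 with it.

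Among other genes that interferon-γ induces, 4 of 16 were higher in IL-27 at the study's thresholds (3.44% of all tested genes). The median log2 fold change of the 16 was 2.18, and 0 passed these thresholds in the other treatments. The chemokine Cxcl9 read 7.97 and 6.81 CPM in pMCS, 274 and 1.17 in IL-27, 46.8 and 27.5 in 27→18, 8.22 and 7.95 in 27pepL, and 15.8 and 17.0 in 27pepL→18. This order of group means matched that of Iigp1 outside IL-27, with both sequential groups above pMCS. Ciita, the class II transactivator, read 0.568 and 1.71 CPM in pMCS and 37.3 and 1.04 in IL-27, the peptide transporter subunit Tap2 10.2 and 12.3 and 100.3 and 7.31, and the checkpoint ligand gene Cd274 8.85 and 7.09 and 76.7 and 8.28. After removal of IL-27 replicate 1, the median log2 fold change of the 16 in IL-27 against pMCS was -0.69.

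Of 16 antiviral genes that type I interferon drives, 4 were higher in IL-27 at the study's thresholds (3.44% of all tested genes). The median of the 16 was 1.92, and 0 passed these thresholds in the other treatments. Oas3, which makes the activator of RNase L, read 4.28 and 5.17 CPM in pMCS and 71.7 and 2.36 in IL-27. The other 3 were Mx1 (2.34 and 2.19 against 37.1 and 0.965), the RNA sensor Ifih1 (5.63 and 13.9 against 60.6 and 9.13) and Oas1a (10.9 and 15.5 against 104 and 7.48). The medians of this list in 27→18 and 27pepL→18 were 0.21 and 0.13, beside 0.77 and 0.36 for the interferon-γ inducible list and 0.97 and 0.95 for the members, and these differences between lists were not tested. Without IL-27 replicate 1 the median of the 16 in IL-27 against pMCS was -0.79.

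Downstream of the GBPs, 3 of 8 inflammasome and cell-death genes were higher in IL-27 (3.44% of all tested genes), and 1, Il1b, in 27→18 (0.7%). Il1b, the cytokine that caspase-1 matures, read 3.34 and 5.03 CPM in pMCS, 59.1 and 7.07 in IL-27, and 17.0 and 16.4 in 27→18. All 10 treated libraries lay above both of pMCS for Il1b, the lowest at 6.01 CPM against 5.03 in pMCS replicate 2. In any single treatment, 10.7 to 19.3% of tested genes lay wholly above pMCS. The share that did so in every treatment was not computed. Nlrp3 (1.25 and 1.28 CPM in pMCS against 9.63 and 1.65 in IL-27) and the DNA sensor Aim2 (1.66 and 1.68 against 12.6 and 1.10) were the other 2, and Casp1 read 2.98 and 5.15 against 33.3 and 2.23. Without IL-27 replicate 1 the median log2 fold change of the 8 in IL-27 against pMCS was -0.39, beside 1.78 with it.

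Genes whose products act on GBP and IRG proteins after they are made were counted last. Of 11 ubiquitin-like conjugation genes, which direct these GTPases to membranes, 0 were called in any treatment, with medians from 0.03 to 0.21. Atg7, Atg3, Map1lc3b and Gabarapl1 had the smallest p of this list, and Atg3 for example read 47.6 and 46.8 CPM in pMCS and 40.1 to 80.0 across the treated libraries. Of 6 genes that act in or after prenylation, a lipid attachment that some GBPs undergo, Pde6d was lower in 27pepL (2.54% of all tested genes) and 27pepL→18 (2.16%). It read 61 and 22.4 CPM in pMCS, 13.3 and 19.8 in 27pepL, and 11.4 and 18.7 in 27pepL→18. The higher pMCS value came from replicate 1 alone, and replicate 2 was close to IL-18, at 20.8 and 21.9 CPM. Pggt1b, Icmt and Rce1 passed no threshold in any treatment (edgeR adjusted p = 1 for each). At an adjusted p under 0.05, 0 genes of these 7 lists were called by edgeR against pMCS.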

How the data were processed

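The authors made stranded poly(A) libraries from tumor RNA, aligned reads with HISAT2, assembled and counted with StringTie and tested with edgeR. The submitters' processing notes add FastQC 0.11.3. For build and annotation, the labels and methods read here name none. The deposited values are whole counts per gene with no scaling by the authors, and all 12 columns were used (49844915 to 76620862 counts). All 55450 identifiers matched GENCODE M21, which gave positions, lengths and overlaps.

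The fit used R 4.3.3 and edgeR 4.0.16: filterByExpr by group (20417 genes kept), TMM scaling, a quasi-likelihood model over all 12 libraries with 1 term per group (common dispersion 0.343, 6 residual and 3.43 prior degrees of freedom) and Benjamini-Hochberg adjustment over the tested genes. SE was taken from the log2 fold change and its F statistic. On simulated data for IL-27 against pMCS with 19703 genes, an adjusted p under 0.05 recovered 0 of 50 genes changed 2-fold, 7 of 50 changed 4-fold, 18 of 50 changed 8-fold and 38 of 50 changed 16-fold, and the study's thresholds recovered 16, 40, 43 and 50. Of unchanged genes 4.04% passed the study's thresholds. Both simulated libraries of a group had the same expected level per gene, apart from depth. The members differed 12.6- to 86.2-fold between the IL-27 libraries, so these rates do not describe recovery of the members in IL-27.

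Alternatives were RLE scaling, no filter, the compared groups alone, a replicate block, a leukocyte covariate, edgeR's exact test, DESeq2 1.42.0 and each library left out in turn. Covariates for adipocyte genes and for a length trend were chosen after seeing the data. All members are named, with the 10 genes of average log2 CPM of at least 1 most correlated with them (predicted genes left out) and the 4 genes of each pathway list with the smallest p against pMCS. Other genes were named after their values were seen. Results for some genes are not reported here. Members and lists were chosen with earlier results of these data known.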

Additional observations from a re-analysis of the deposited data

How the results depend on the processing

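Counts below are of the 10 members at the study's thresholds and medians are of their log2 fold changes. With a leukocyte covariate, IL-18 against pMCS gave 4 lower (2.92% of genes) and a median of -0.98, IL-27 against pMCS 3 lower (2.54%) and -1.25, 27→18 -0.25, 27pepL -0.38, 27pepL→18 -0.63, 27pepL against IL-27 2 higher (2.2%) and 0.97, 27→18 against IL-27 1 higher (2.05%) and 1.005, 27pepL→18 against 27pepL -0.23, and the IL-18 effect after IL-27 5 higher (2.72%) and 1.85. In that fit the IL-27 estimates against pMCS turned over to -1.25 for Gbp2, -1.36 for Gbp3, -1.20 for Gbp4, -1.92 for Gbp5, -1.24 for Gbp7, -0.56 for Irgm1, -2.02 for Irgm2, -0.93 for Igtp, -1.49 for Iigp1 and -1.18 for Ifi47. With an adipocyte covariate, chosen after seeing the data, IL-27 gave 0 higher (1.26% of genes) and 0.99, 27→18 1 higher (1.72%) and 1.47, 27pepL 1 higher (2.42%) and 1.25, 27pepL→18 5 higher (3.78%) and 1.92, 27pepL against IL-27 0 lower (2.02%) and 0.34, 27→18 against IL-27 a median of 0.47, and the IL-18 effect after IL-27 0.58. Both covariates were highest in IL-27 replicate 1, which these fits include. The length trend, also chosen after seeing the data, moved that last median to -1.44. The cause of these shifts was not tested.

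With no filter on low counts the counts were 5 higher for 27→18, 4 higher for 27pepL→18, 10 lower for 27pepL against IL-27, 10 lower for 27→18 against IL-27 and 9 for the IL-18 effect after IL-27. With the compared groups alone IL-27 had 0 members called, 27→18 had 5, 27pepL→18 had 3, and 27pepL against IL-27 had 0. RLE scaling gave 1 for 27→18 against IL-27. For 27pepL against IL-27 and 27→18 against IL-27, the exact test gave 8 and 3 and DESeq2 10 and 8. The exact test was not run for the differences in IL-18 effect. Replicate numbers do not pair the samples (5 of 15 pairs of groups correlated over 0.1, r from -0.27 to 0.31). A replicate block gave 3 higher and a median of 2.58 for IL-27, 1 and -2.05 for 27pepL against IL-27, -1.61 for 27→18 against IL-27 and -1.43 for the IL-18 effect after IL-27. The share of all genes called is not given for RLE scaling, the replicate block or the IL-18 effect with no filter. Those counts therefore cannot be weighed against it.

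Leaving out 1 library at a time, the medians ranged from -1.11 to 4.09 for IL-27, from 0.65 to 1.23 for 27→18, from 0.85 to 1.19 for 27pepL→18, from -3.47 to 1.64 for 27pepL against IL-27, from -2.92 to 2.27 for 27→18 against IL-27, and from -2.95 to 2.26 for the IL-18 effect after IL-27. The medians ranged from -0.61 to 0.24 for IL-18, 0.46 to 0.67 for 27pepL, 0.35 to 0.53 for 27pepL→18 against 27pepL and 0.18 to 0.99 for the IL-18 effect after 27pepL, with 0 called throughout. The IL-27 estimates ranged from -1.10 to 4.19 for Gbp2, -1.21 to 3.17 for Gbp3, -1.12 to 5.28 for Gbp4, -1.69 to 4.69 for Gbp5, -1.04 to 3.28 for Gbp7, -0.35 to 3.28 for Irgm1, -1.77 to 4.24 for Irgm2, -0.84 to 3.82 for Igtp, -1.29 to 5.06 for Iigp1 and -1.07 to 3.98 for Ifi47. Each lowest value came without IL-27 replicate 1 and each highest without IL-27 replicate 2. Each group rests on 2 libraries, so no value has a check beyond that pair.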
